A study of Mus musculus with 9 samples.

Results

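Bone morphogenetic protein (BMP) signalling and the *Id* genes were described in NMuMG cells, a line from normal mouse mammary gland epithelium, across cells that carried an empty vector or that overexpressed the long noncoding RNA EPR or its peptide-null form. The genes were chosen by symbol, and all 10 of them were present among the 52459 gene symbols of the deposited quantifications. They were the ligands *Bmp2*, *Bmp4* and *Bmp7*, the receptors *Bmpr1a* and *Bmpr2*, the intracellular *Smad1* and *Smad6*, and the target genes *Id1*, *Id2* and *Id3*. The 3 libraries called mock came from cells with the vector and without the EPR sequence. The 3 EPR libraries came from cells overexpressing the full transcript, and the 3 EPRSTOPE libraries from cells overexpressing the transcript with a point mutation that prevents translation of its small peptide, EPRp. All cells were stably transfected pools made with a pBICEP-based vector and selected with G418, and all were grown in DMEM with 10% FCS. The methods of the study call the libraries of a condition biological triplicates. Whether they came from separately transfected pools was not stated. The p-values below set group differences against the spread between these libraries, and may not cover differences between separately transfected pools.

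BMPs are secreted dimers of the TGF-β superfamily. They bring together type I receptors, such as the product of *Bmpr1a*, and type II receptors, such as that of *Bmpr2*; the type I receptor then phosphorylates Smad1, Smad5 or Smad9, which enter the nucleus with Smad4. Among the genes switched on most directly are those of the Id proteins, helix-loop-helix factors without a DNA-binding domain that hold E proteins away from DNA, and *Smad6*, which feeds back on the pathway as an inhibitor. In mammary epithelium Id1 is known for its opposition to differentiation and Id2 for being needed for it, and BMP ligands for their role in gland development.

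The positions of the genes are given on GRCm38 from the Gencode M21 annotation. *Bmp2* lies at chr2:133552159-133562885 on the plus strand, *Bmp7* at chr2:172868012-172940321 on the minus strand and *Id1* at chr2:152736251-152737410 on the plus strand. *Bmp4* lies at chr14:46383520-46390669 and *Bmpr1a* at chr14:34410734-34503341, both on the minus strand. *Bmpr2* lies at chr1:59763400-59879014 on the plus strand, *Smad1* at chr8:79338395-79399518 and *Smad6* at chr9:63953076-64022059, both on the minus strand. *Id2* lies at chr12:25093799-25097140 on the minus strand and *Id3* at chr4:136143497-136145755 on the plus strand. *Bmp4*, *Bmpr1a* and *Bmpr2* overlap other annotated genes (*Gm15217* and *Gm15222*, *Gm17110*, and *Gm38125*, respectively), so that their estimates could hold reads of these genes. For *Bmp4* and *Bmpr1a* the overlap is on the opposite strand, and the strand setting of the quantification was not given in the sources used here. For *Bmpr2* it is on the same strand, where a strand setting would not separate the reads. Levels of these 4 overlapping genes did not exceed 1.01 CPM in any library.

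Promoter sequence is shown for 3 of the genes that changed, taken from the RefSeq windows on GRCm38.p6 (250 bases before to 50 after a start site) and trimmed to the stretch outside annotated exons. RefSeq windows were found for 7 of the 10 genes. *Bmp4* is shown because it rose far more than the other genes with a window changed, *Bmpr1a* and *Id2* because their windows held GGCGCC, a GC-rich element bound by BMP-responsive Smads (searched on both strands, on which it reads the same), which is in capitals. The stretches are chr14:46390670-46390919, chr14:34502688-34502796 and chr12:25096254-25096342, all on the minus strand and written 5′ to 3′. The *Bmpr1a* stretch lies within the annotated span of the gene, outside its exons. The *Id2* stretch lies before the main transcript *Id2-201* and in an intron of the longer *Id2-202*.
Bmp4: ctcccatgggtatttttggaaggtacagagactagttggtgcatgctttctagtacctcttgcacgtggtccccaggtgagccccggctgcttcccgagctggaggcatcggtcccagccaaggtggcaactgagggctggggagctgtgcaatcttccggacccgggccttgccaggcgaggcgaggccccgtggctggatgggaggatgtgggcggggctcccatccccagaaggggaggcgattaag
Bmpr1a: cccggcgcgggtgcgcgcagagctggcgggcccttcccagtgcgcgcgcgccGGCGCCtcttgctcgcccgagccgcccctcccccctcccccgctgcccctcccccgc
Id2: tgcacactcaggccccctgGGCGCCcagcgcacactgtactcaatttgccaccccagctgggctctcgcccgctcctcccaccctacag

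GGCGCC was found in the windows of 3 of the 7 genes, *Bmpr1a*, *Bmpr2* and *Id2*, against 11.9% of all 32851 promoter windows. CAGAC, the Smad-binding element (searched also as GTCTG), was found in the window of 1 gene, *Id3*, against 49.6% of all windows. These are matches of letters and were not tested as binding sites.

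The libraries held 5972457 to 11876435 estimated counts, so that 3 counts correspond to between 0.253 and 0.502 counts per 1000000 (CPM). EPR itself, listed as *BC030870*, averaged 0.0543 CPM in mock, 24.9 CPM in EPR and 4.24 CPM in EPRSTOPE libraries, so the EPR libraries carried more of the RNA than the EPRSTOPE libraries, and the effect of the peptide and of the amount of RNA cannot be told apart in the comparison of these 2 groups. The cell type was checked with 12 epithelial markers, whose summed level was 3693 to 4159 CPM in mock, 9503 to 10611 CPM in EPR and 10688 to 11025 CPM in EPRSTOPE libraries. *Krt8* was high everywhere, but 5 of the 12 were at 0 in every mock library (*Epcam*, *Cldn3*, *Cldn4*, *Cldn7* and *Esrp1*) and 4 in every EPRSTOPE library, and *Cdh1*, the gene of E-cadherin, averaged 0.843, 556 and 403 CPM in mock, EPR and EPRSTOPE libraries. The summed level of 12 mesenchymal markers was 4065 to 4227 CPM, 2224 to 2454 CPM and 3974 to 4311 CPM, in the same order. The epithelial sum was thus above mock in both overexpressing groups, while the mesenchymal sum was below mock in EPR libraries and overlapped it in EPRSTOPE libraries. These sums rest mostly on *Krt8* and *Krt18* (means of 2108 and 1526 CPM in mock) and on *Vim* (2634 CPM in mock, 3138 CPM in EPRSTOPE). Of 7 epithelial markers tested, 7 were called higher in EPR and 4 in EPRSTOPE against mock, beside 15.2% and 15.6% of all genes. Of 6 mesenchymal markers tested, 5 and 2 were called lower, beside 12.9% and 12.4%. By the call rule given below, none was called the other way. The part of these marker differences in the results below was not tested. In bulk libraries, fewer cells of a type and less RNA per cell cannot be told apart.

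Of the 3 ligands, *Bmp4* was far higher and *Bmp2* and *Bmp7* far lower in both overexpressing lines than in mock cells. The comparison with mock addressed how the overexpressing cells differed from cells with the vector alone. That of EPR with EPRSTOPE addressed whether cells with and without the capacity to make the peptide differed. The part of other differences between the selected cells was not tested. A gene was called changed at an adjusted p under 0.01 together with a log2 fold change beyond 0.5 in edgeR's quasi-likelihood test on the estimated counts, fitted over 15370 genes in all 9 libraries.

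*Bmp4* encodes a ligand with roles in mesoderm and epithelial patterning. It was near the limit of detection in mock libraries, at 0.311, 0.422 and 0.163 CPM in replicates 203, 204 and 205, from 8 counts in all. In EPR libraries it stood at 42.0, 41.0 and 44.9 CPM in replicates 206, 207 and 208, and in EPRSTOPE libraries at 46.2, 51.8 and 46.1 CPM in replicates 209, 210 and 211. Every overexpressing library was thus far above every mock library, and the EPR and EPRSTOPE libraries lay close to each other. The ratio of the counts, scaled to library size, was 151 (exact 95% interval 76.3 to 350.1) for EPR and 171 (86.3 to 396) for EPRSTOPE over mock, intervals that cover counting error only. In edgeR the log2 fold changes were 7.16 (SE 0.18, adjusted p = 4.1e-11) and 7.34 (SE 0.18, adjusted p = 2.9e-11). Between EPR and EPRSTOPE the difference was −0.17 (95% interval −0.38 to 0.04) on the log2 scale, with an adjusted p of 0.2 in edgeR. Most of the transcript signal was assigned to *Bmp4-202*, which took 53.4 to 76.2% of the gene's TPM (transcripts per 1000000, a level scaled to length) in EPR and 61.3 to 76.4% in EPRSTOPE libraries.

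*Bmp2*, a ligand known for bone formation and for roles in epithelial morphogenesis, went the other way. It stood at 50.6, 55.9 and 50.4 CPM in the mock libraries. In EPR libraries it was 2.36, 1.39 and 3.36 CPM, and in EPRSTOPE libraries 5.76, 6.62 and 7.02 CPM. None of the 3 groups overlapped, and the EPR libraries were the lowest. The edgeR log2 fold change from mock was −4.42 (SE 0.19, adjusted p = 3.8e-09) for EPR and −3.0 (SE 0.17, adjusted p = 3.7e-08) for EPRSTOPE, that is 21.4-fold and 8.01-fold lower. *Bmp2* was the single gene of the 10 that differed between EPR and EPRSTOPE by both thresholds, by −1.41 (SE 0.22, adjusted p = 0.00051 in edgeR), or 2.66-fold lower in EPR.

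*Bmp7*, a ligand known from kidney and eye development, was almost lost. It was measured at 10.7, 14.1 and 10.5 CPM in mock libraries, at 0.873 CPM in EPR replicate 206 and at 0 in the other 2 EPR libraries, and at 0.169 CPM (1 count) in EPRSTOPE replicate 209 and at 0 in the other 2. All mock libraries lay above all others. The count ratio of mock over EPR was 35.4 (exact 95% interval 19 to 74.5), with the 10 counts of the EPR group in replicate 206, and that of mock over EPRSTOPE was 282 (50.3 to 11174). The adjusted p from edgeR was 4.6e-05 and 2.4e-05. Without EPR replicate 206 that group had no count, and the fitted log2 fold change of EPR against mock, −5.12 with it, was −9.71, a value that depends on the prior count. EPR and EPRSTOPE differed by 2.6 on the log2 scale with a 95% interval of −0.78 to 5.99, and without EPR replicate 206 the difference was −1.99, so that no direction could be read between them.

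**Figure D1:**
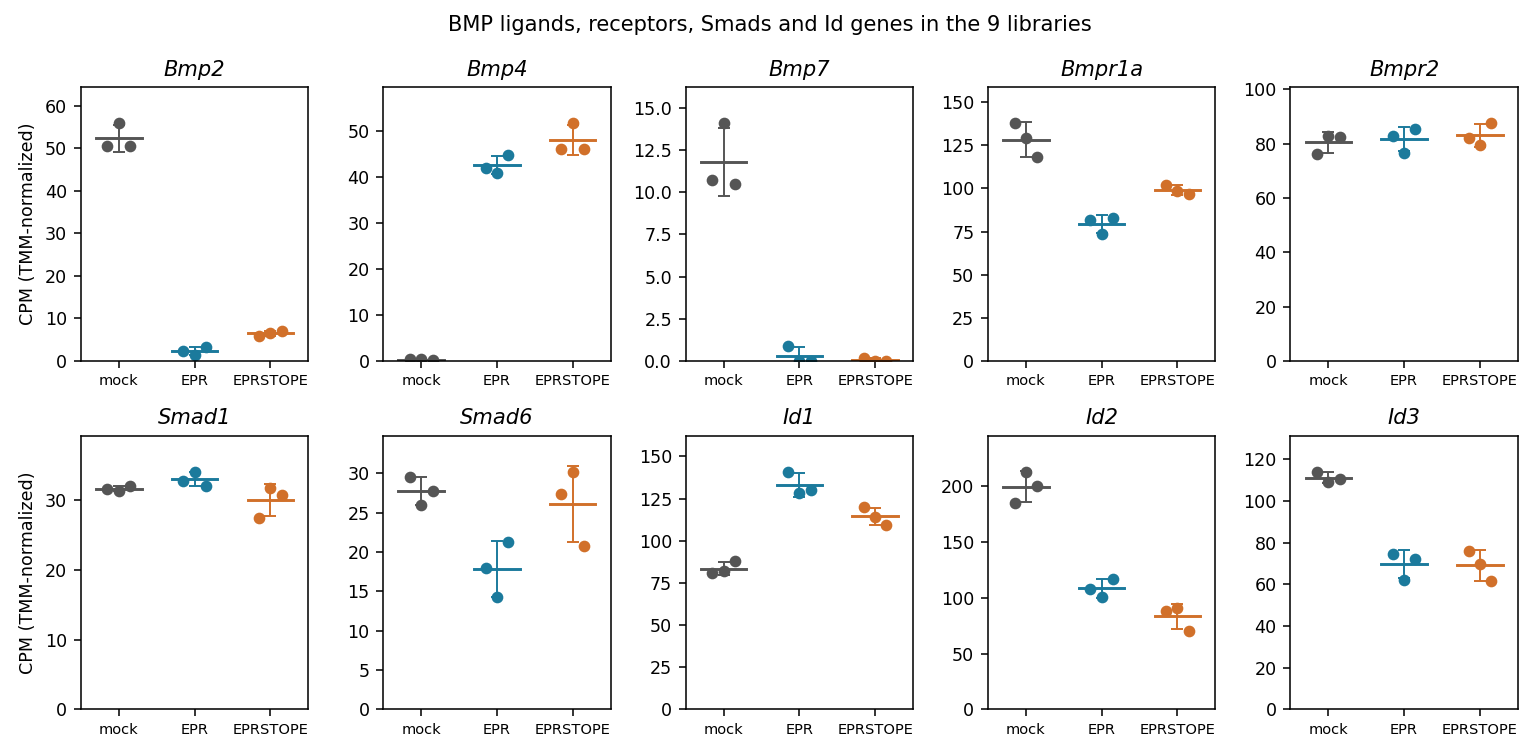
Level of each of the 10 genes in CPM (linear axes starting at 0) in every mock, EPR and EPRSTOPE library; points are libraries, long horizontal bars group means and whiskers the SD (n = 3). *Bmp4* rises from near 0 to above 40 CPM, *Bmp2* and *Bmp7* fall, *Id1* stands highest in EPR libraries and *Id2* and *Id3* stand highest in mock libraries.

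Because the levels of different genes can be compared only per length, the ligands were also set side by side in TPM. All BMP and related GDF ligands together summed to 16.2 ± 3.23 TPM in mock, 24.3 ± 1.1 TPM in EPR and 30.1 ± 5.62 TPM in EPRSTOPE libraries (SD, n = 3 each). *Bmp2* made up 74.3 ± 4.57% of the ligand TPM in mock libraries, 2.33 ± 0.892% in EPR and 5.29 ± 0.202% in EPRSTOPE libraries. *Bmp4* made up 1.05 ± 0.527%, 95.2 ± 0.693% and 90.2 ± 0.3%, and *Bmp7* 20.5 ± 3.77%, 0.507 ± 0.878% and 0.053 ± 0.0918%. The ligand RNA of mock cells was thus mostly *Bmp2* with some *Bmp7*, and that of both overexpressing lines was nearly all *Bmp4*. The summed ligand TPM did not overlap between any of mock (13.5 to 19.8), EPR (23.4 to 25.5) and EPRSTOPE (26.1 to 36.5). Comparisons of 3 libraries against 3 cannot reach an exact permutation p below 0.1.

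Of the 2 receptors, *Bmpr1a* was lower in EPR libraries and *Bmpr2* was not called. *Bmpr1a*, a type I receptor gene, was measured at 138, 129 and 118 CPM in mock libraries, at 82.0, 73.4 and 83.0 CPM in EPR libraries and at 102, 98.6 and 96.7 CPM in EPRSTOPE libraries. The groups did not overlap, with EPRSTOPE in the middle. The edgeR log2 fold change was −0.69 (SE 0.07, adjusted p = 7.4e-06) for EPR against mock, which was called. It was −0.37 (SE 0.07, adjusted p = 0.001) for EPRSTOPE against mock and −0.32 (SE 0.07, adjusted p = 0.0057) for EPR against EPRSTOPE, both past the p threshold and short of the fold threshold. With counts rebuilt from TPM and transcript length the EPR value was −0.48 (adjusted p = 0.032 in edgeR) and was not called. For *Bmpr2*, the type II receptor gene, mock libraries stood at 76.0 to 82.8 CPM, EPR libraries at 76.7 to 85.3 CPM and EPRSTOPE libraries at 79.4 to 87.6 CPM. These ranges overlapped throughout, and the 95% intervals of the log2 fold change were −0.13 to 0.17 for EPR and −0.1 to 0.19 for EPRSTOPE against mock.

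*Smad1*, a receptor-activated Smad, likewise showed no call in any comparison. Its libraries lay at 31.2 to 32.0 CPM in mock, 32.0 to 34.0 CPM in EPR and 27.4 to 31.7 CPM in EPRSTOPE, and the 95% interval of the log2 fold change ran from −0.12 to 0.23 for EPR and from −0.25 to 0.11 for EPRSTOPE against mock. On the TPM scale the mean was 17.4 ± 1.84 in mock and 11.6 ± 1.88 in EPR libraries (SD, n = 3), where the short transcript *Smad1-205* was at 0 in EPR libraries and took 2.91 to 31.3% of the gene's TPM in mock libraries. With counts rebuilt from TPM the EPR value was accordingly −0.4 on the log2 scale (adjusted p = 0.22 in edgeR). *Smad6*, the inhibitory Smad, stood at 29.5, 26.0 and 27.7 CPM in mock libraries, at 17.9, 14.3 and 21.3 CPM in EPR libraries and at 27.3, 30.2 and 20.7 CPM in EPRSTOPE libraries. EPR libraries were below every mock library, while EPRSTOPE replicate 211 reached into the EPR range. The edgeR log2 fold change was −0.63 (SE 0.16, adjusted p = 0.0062) for EPR and −0.09 (SE 0.16, adjusted p = 0.69) for EPRSTOPE against mock, and −0.54 (SE 0.16, adjusted p = 0.024) between EPR and EPRSTOPE. The call for EPR was the least secure of the 10 genes: it was lost, with the adjusted p between 0.011 and 0.027 in edgeR, without mock replicate 203, 204 or 205 or EPR replicate 206 or 207, and the value was 0.06 with counts rebuilt from TPM, where *Smad6-203*, a transcript of 273 bases, took up to 42.3% of the gene's TPM in EPR libraries.

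The *Id* genes did not move together. *Id1* was higher in both overexpressing lines and *Id2* and *Id3* were lower. *Id1* stood at 81.1, 81.8 and 87.7 CPM in mock libraries, at 141, 128 and 129.8 CPM in EPR libraries and at 119.8, 114 and 109.5 CPM in EPRSTOPE libraries. The 3 groups did not overlap. The edgeR log2 fold change was 0.67 (SE 0.06, adjusted p = 3.7e-06) for EPR, which was called, and 0.45 (SE 0.06, adjusted p = 9.9e-05) for EPRSTOPE against mock, which passed the p threshold and not the fold threshold. EPR and EPRSTOPE differed by 0.21 (95% interval 0.07 to 0.35, adjusted p = 0.024 in edgeR), which was not called.

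*Id2* was the most abundant *Id* gene of mock cells. It was measured at 185, 213 and 200.2 CPM in mock libraries, at 108, 100.3 and 117 CPM in EPR libraries and at 88.6, 90.7 and 70.5 CPM in EPRSTOPE libraries. Again the groups did not overlap, and here EPRSTOPE was the lowest. In edgeR it fell by 0.88 (SE 0.1, adjusted p = 1.2e-05) in EPR and by 1.26 (SE 0.1, adjusted p = 5.4e-07) in EPRSTOPE on the log2 scale, while the difference between them, 0.38 (95% interval 0.17 to 0.6, adjusted p = 0.011), did not pass. *Id3* stood at 114, 109 and 110.2 CPM in mock libraries, at 74.7, 62.1 and 72.3 CPM in EPR libraries and at 75.9, 69.8 and 61.4 CPM in EPRSTOPE libraries. Both overexpressing groups lay below mock and overlapped each other fully. Its edgeR log2 fold change was −0.67 (SE 0.09, adjusted p = 4.3e-05) for EPR and −0.69 (SE 0.09, adjusted p = 3.7e-05) for EPRSTOPE, with 0.02 (95% interval −0.17 to 0.21) between them.

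**Figure D2:**
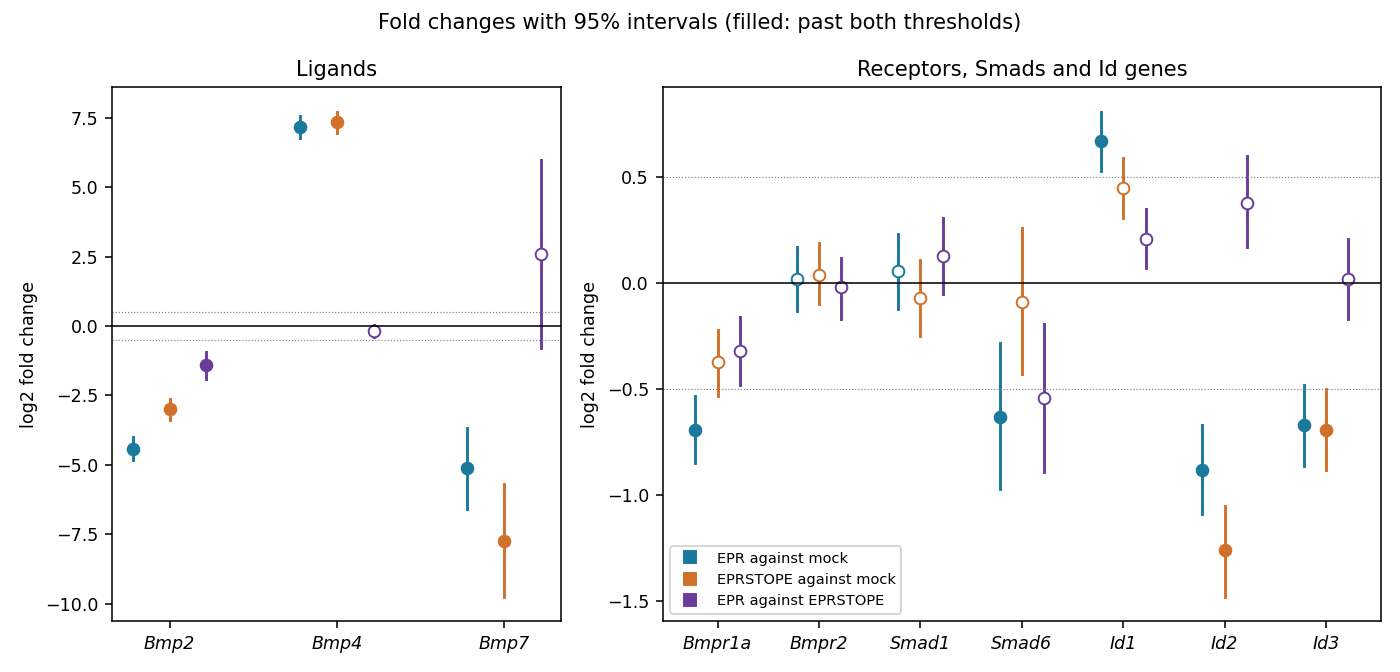
Log2 fold change of the 10 genes in each of the 3 comparisons from edgeR, with 95% intervals; filled symbols passed both thresholds. The ligands span −7.73 to 7.34, and the receptors, Smads and *Id* genes lie between −1.26 and 0.67.

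In TPM the order of the *Id* genes turned over. The 4 *Id* genes together amounted to 414 ± 28 TPM in mock, 306 ± 18.9 TPM in EPR and 278 ± 42.9 TPM in EPRSTOPE libraries (SD, n = 3 each). *Id1* made up 27.0 ± 1.39% of this in mock, 48.2 ± 2.51% in EPR and 49.1 ± 2.51% in EPRSTOPE libraries. The share of *Id2* was 43.6 ± 3.4%, 28.5 ± 1.4% and 24.9 ± 2.82%, and that of *Id3* was 29.4 ± 2.4%, 23.3 ± 1.29% and 25.9 ± 2.35%. *Id2* thus led *Id1* in every mock library, with a TPM ratio of 1.45 to 1.85, and trailed it in every overexpressing library, with a ratio of 0.541 to 0.659 in EPR and 0.424 to 0.551 in EPRSTOPE. *Id4* contributed at most 0.111% in any library. The main transcripts were the same in all groups: *Id1-201* held 85.2 to 94.2% of the *Id1* TPM and *Id2-201* held 82.9 to 89.4% of the *Id2* TPM.

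The partners of the Id proteins are the E proteins, encoded by *Tcf3*, *Tcf4* and *Tcf12*. None of the 3 was called in any comparison, although *Tcf3* and *Tcf12* passed the p threshold in EPR against mock, at −0.48 (adjusted p = 5.2e-05) and −0.36 (adjusted p = 0.0012) on the log2 scale in edgeR, and *Tcf3* also in EPRSTOPE against mock, at −0.29 (adjusted p = 0.0025). Their summed level was 99.4 ± 12.3 TPM in mock, 62.7 ± 2.76 TPM in EPR and 75.1 ± 10.5 TPM in EPRSTOPE libraries. The ratio of *Id* to E protein TPM ranged from 3.81 to 4.61 in mock, 4.57 to 5.05 in EPR and 3.16 to 4.17 in EPRSTOPE libraries. EPR and EPRSTOPE each overlapped mock in this ratio and did not overlap each other.

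**Figure D3:**
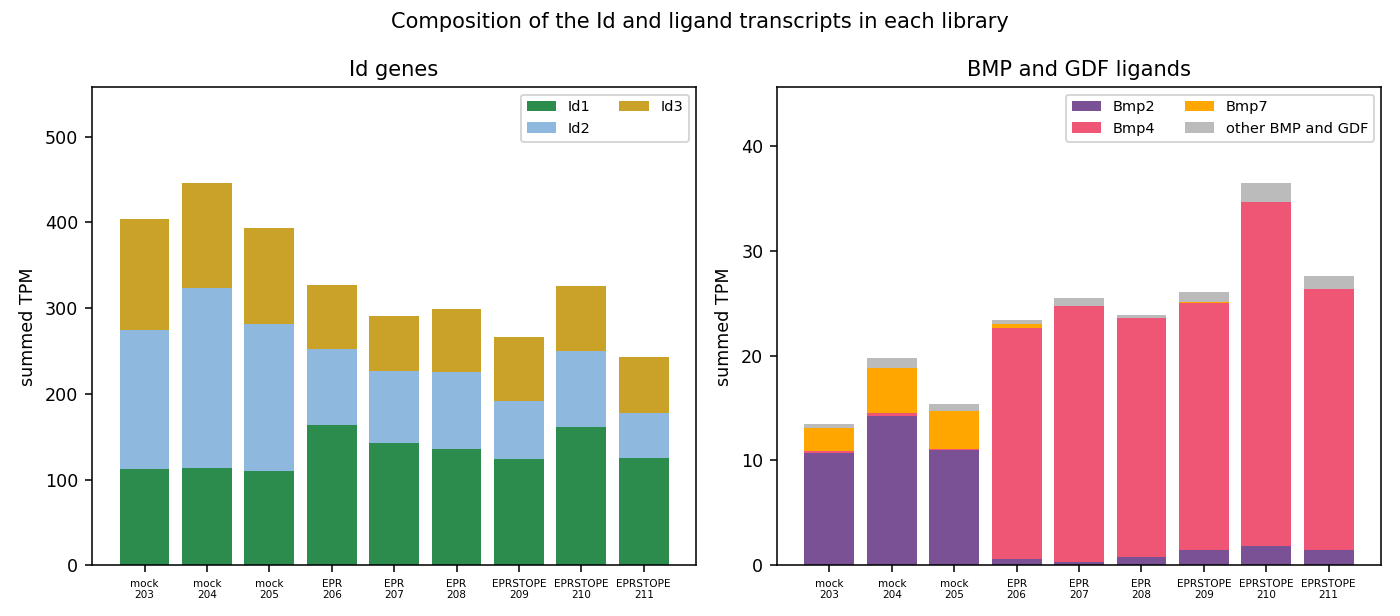
Stacked bars of TPM in each of the 9 libraries, for *Id1*, *Id2* and *Id3* in the first panel. The second panel shows *Bmp2*, *Bmp4*, *Bmp7* and the other BMP and GDF ligands, and bar height is the summed TPM. *Bmp2* fills most of the bar in mock libraries and *Bmp4* in all others, and the *Id1* share goes from 25.4 to 27.9% in mock to between 45.3 and 51.5% in the other libraries.

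Ordered by mean TPM, mock cells held *Id2* (181), *Id3* (121), *Id1* (112), *Bmpr1a* (43.2), *Smad1* (17.4), *Bmp2* (12), *Smad6* (8.23), *Bmpr2* (5.63), *Bmp7* (3.37) and *Bmp4* (0.173). Of these neighbours, *Id3* and *Id1* overlapped between libraries (111 to 129 and 109.7 to 113 TPM). In EPR cells the order was *Id1* (147), *Id2* (87.1), *Id3* (71.1), *Bmpr1a* (26.9), *Bmp4* (23.1), *Smad1* (11.6), *Smad6* (7.37), *Bmpr2* (5.93), *Bmp2* (0.561) and *Bmp7* (0.119). There *Smad1* and *Smad6* and *Smad6* and *Bmpr2* overlapped as neighbours, and *Bmp4* had moved from the last place to that next below *Bmpr1a*. In EPRSTOPE cells the order ran *Id1* (137), *Id3* (71.6), *Id2* (70.0), *Bmpr1a* (31.0), *Bmp4* (27.1), *Smad1* (13.2), *Smad6* (8.98), *Bmpr2* (6.53), *Bmp2* (1.59) and *Bmp7* (0.0138). *Id3* and *Id2*, *Bmpr1a* and *Bmp4*, *Smad1* and *Smad6*, and *Smad6* and *Bmpr2* overlapped as neighbours.

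Across the 10 genes, 8 were called in EPR against mock (2 higher, 6 lower), against 28.1% of all genes tested (15.2% higher and 12.9% lower). In EPRSTOPE against mock 5 were called (1 higher, 4 lower), against 28% of all genes (15.6% higher and 12.4% lower), and in EPR against EPRSTOPE 1, *Bmp2*, which was lower, against 13.2% (6.86% higher and 6.35% lower). The first 2 counts differ by *Id1* and *Bmpr1a*, which missed the fold threshold in EPRSTOPE, and *Smad6*, which missed both. All 10 passed the filter of at least 1 CPM in at least 3 libraries, *Bmp4* through the overexpressing libraries and *Bmp7* through the mock libraries alone. The 10 genes were also chosen with earlier results of these data known, so that these counts cannot be read as an excess over all genes. The median log2 fold change of the 10 was −0.647, −0.229 and −0.003 in the 3 comparisons, beside −0.011, −0.039 and 0.007 over all genes. Both comparisons with mock share the mock libraries, so that likeness between them is not independent evidence. Libraries did not overlap between groups for 8, 7 and 6 of the 10 genes, where the share among all genes was 57.8%, 56.5% and 43%.

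The rest of the pathway was taken from lists of 64 further genes, of which 34 were tested and 13 were at 0 in every library. The 13 included the ligands *Bmp5*, *Bmp10*, *Gdf2*, *Gdf5* and *Gdf6*, the type I receptor *Bmpr1b*, the co-receptor *Hfe2*, the antagonists *Chrdl1*, *Sost* and *Sostdc1*, and the targets *Dlx5* and *Sp7*. *Acvrl1*, *Bmp15*, *Cer1*, *Chrdl2* and *Gdf7* were at 0 in all libraries of 1 or 2 groups and had at most 4 counts over the libraries of any group. In each comparison with mock, 12 of the 34 tested were called (7 higher, 5 lower, 35.3%), beside 28.1% of all genes in EPR and 28% in EPRSTOPE. In EPR against EPRSTOPE 5 were called (2 higher, 3 lower, 14.7%), beside 13.2% of all genes. These shares lie near those of all genes. Among the 10 Smads and regulators tested, *Smad9* alone was called in EPR and *Smad9* and *Skil* in EPRSTOPE, all lower. In EPR against mock, *Smad4*, *Smad5*, *Smad7*, *Ppm1a* and *Skil* passed the p threshold and fell short of the fold threshold, at −0.33, −0.41, −0.29, −0.43 and −0.34 on the log2 scale. In EPRSTOPE against mock the same held for *Smad4* at −0.32, *Smurf2* at −0.43 and *Ski* at 0.27. *Smad4* is the common partner Smad, *Smad7* an inhibitory Smad, *Ppm1a* a phosphatase gene, *Smurf2* a ubiquitin ligase gene and *Ski* a corepressor gene. *Skil*, which encodes the repressor SnoN, averaged 169 CPM in mock and 114 CPM in EPRSTOPE libraries (log2 fold change −0.57, adjusted p = 0.00029 in edgeR). *Rgma*, a co-receptor gene, was the single receptor or co-receptor called of the 6 tested, lower in both lines. Both *Rgma* and *Smad9* were low throughout. In mock, EPR and EPRSTOPE libraries *Rgma* averaged 3.1, 0.201 and 0.148 CPM and *Smad9* averaged 3.76, 0.391 and 0.37 CPM. *Rgma* ranged from 1.55 to 4.75 CPM among the mock libraries.

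Of 18 extracellular antagonists and modulators, which bind BMPs or process their inhibitors, 8 were tested. Of these, 5 were higher and none lower in EPR against mock, beside 15.2% higher and 12.9% lower over all genes. In EPRSTOPE against mock 5 were higher and 1, *Grem1*, lower, beside 15.6% and 12.4%. *Fst*, which encodes follistatin, a binder of activin and BMPs, stood at 1.09, 1.37 and 1.87 CPM in mock, 22.9, 22.2 and 28.0 CPM in EPR and 4.91, 5.45 and 8.05 CPM in EPRSTOPE libraries. The groups did not overlap. Its edgeR log2 fold change was 4.01 (SE 0.24, adjusted p = 6.2e-08) for EPR and 2.03 (SE 0.26, adjusted p = 4.4e-05) for EPRSTOPE, and they differed by 1.97 (SE 0.2, adjusted p = 1.8e-05). *Bmper*, a secreted BMP-binding modulator, was ordered the other way, at 8.54, 7.49 and 8.38 CPM in mock, 22.5, 24.5 and 21.4 CPM in EPR and 56.6, 54.1 and 48.2 CPM in EPRSTOPE libraries. In edgeR it was 2.32-fold lower in EPR than in EPRSTOPE (log2 fold change −1.22, SE 0.1, adjusted p = 2e-06). *Nbl1*, a DAN-family antagonist, averaged 21.2, 57.0 and 34.9 CPM in mock, EPR and EPRSTOPE libraries, and *Bmp1*, a protease that cleaves chordin, averaged 40.9, 91.8 and 122 CPM. Noggin, from *Nog*, was not tested: it had 25 counts over the 3 mock libraries and none in EPR or EPRSTOPE libraries, at least 8.89-fold and 7.08-fold lower with a floor of 3 counts over the group.

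**Figure D4:**
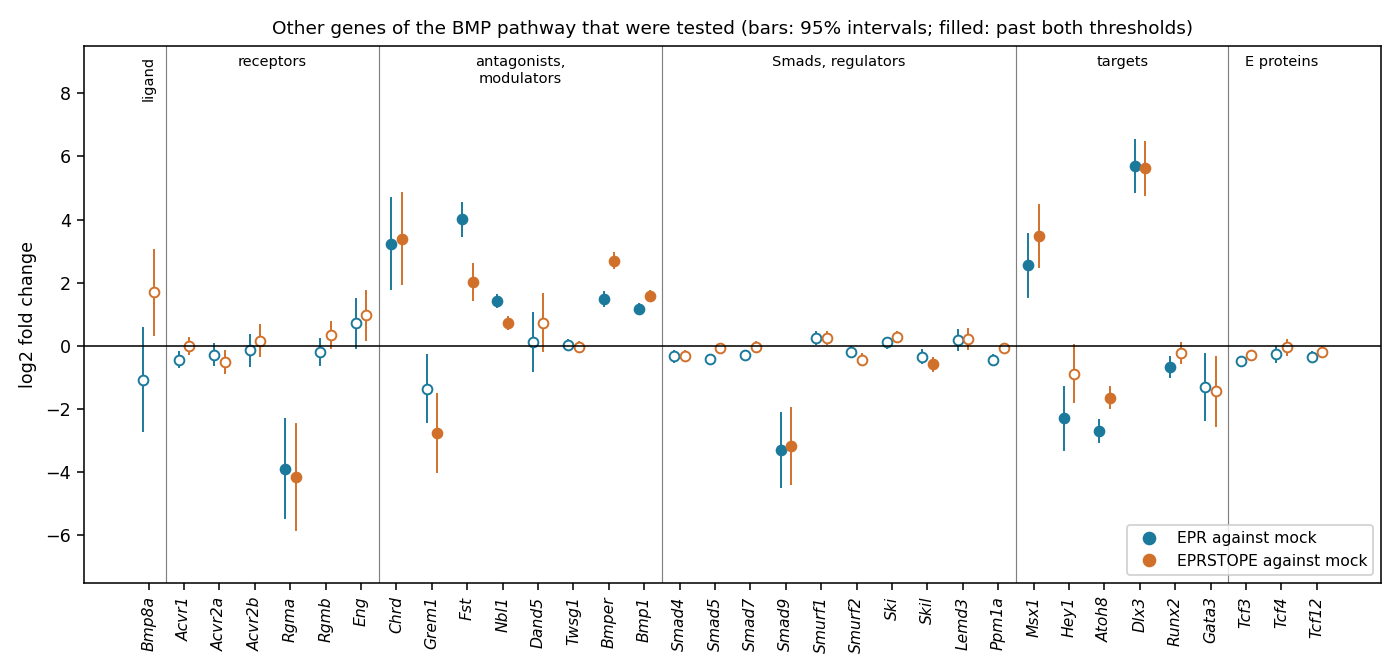
Log2 fold change against mock, with 95% intervals, of the 34 further genes of the pathway that were tested, by role, for EPR and EPRSTOPE (edgeR); filled symbols passed both thresholds. Antagonists and modulators called higher include *Fst*, *Nbl1*, *Bmper* and *Bmp1*, while the Smads and E proteins lie between −0.57 (*Skil* in EPRSTOPE, which was called) and 0.27 apart from *Smad9*.

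Of the other targets of BMP signalling 6 were tested, of which 2 were higher and 3 lower in EPR against mock and 2 higher and 1 lower in EPRSTOPE against mock. Calls over all genes were 28.1% and 28% in these comparisons. *Dlx3*, a homeobox gene, averaged 0.149 CPM in mock, 8.1 CPM in EPR and 7.74 CPM in EPRSTOPE libraries. *Msx1*, also a homeobox gene, averaged 0.624, 3.67 and 6.87 CPM. *Atoh8*, a helix-loop-helix factor gene, fell from 26.4 CPM in mock to 4.03 CPM in EPR and 8.48 CPM in EPRSTOPE libraries, and EPR and EPRSTOPE differed by −1.06 on the log2 scale (SE 0.17, adjusted p = 0.00059 in edgeR). *Runx2*, a factor of osteoblasts, averaged 35.8 CPM in mock and 22.7 CPM in EPR libraries (log2 fold change −0.66, adjusted p = 0.0027 in edgeR). It averaged 30.6 CPM in EPRSTOPE libraries, where it was not called. Among ligands other than the first 3, *Bmp8a* alone was tested. It was lower in EPR than in EPRSTOPE (log2 fold change −2.77, adjusted p = 0.0081 in edgeR), at no more than 2.99 CPM in any library.

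The surroundings of the genes on their chromosomes were examined because many genes of chromosome 14 differed together. Over the 466 tested genes of chromosome 14 the median of the log2 fold changes was 0.5 in EPR and 0.64 in EPRSTOPE against mock, where the medians over all genes were −0.011 and −0.039. The 51 tested neighbours of *Bmp4* within 5 Mb had medians of 0.52 and 0.78, far below the 7.16 and 7.34 of *Bmp4* itself. They fell into 2 sides, a split made after the values were seen: the 16 at lower coordinates had medians of −0.66 and −0.59, and the 35 at higher coordinates medians of 0.64 and 0.89. The 52 neighbours of *Bmpr1a*, on the same chromosome, had medians of −0.23 and −0.03. Around *Bmp2*, *Bmp7*, *Bmpr2*, *Smad1*, *Smad6*, *Id1*, *Id2* and *Id3* the medians of both comparisons lay between −0.19 and 0.04. Over the 470 tested genes of chromosome 12, which holds *Id2*, the median was −0.27 in EPR and −0.01 in EPRSTOPE against mock. On the chromosomes of the other genes in this group it lay between −0.09 and 0.02. The part of the raised segment in the *Bmp4* result was not tested, nor was that of the chromosome 12 shift in the *Id2* result.

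**Figure D5:**
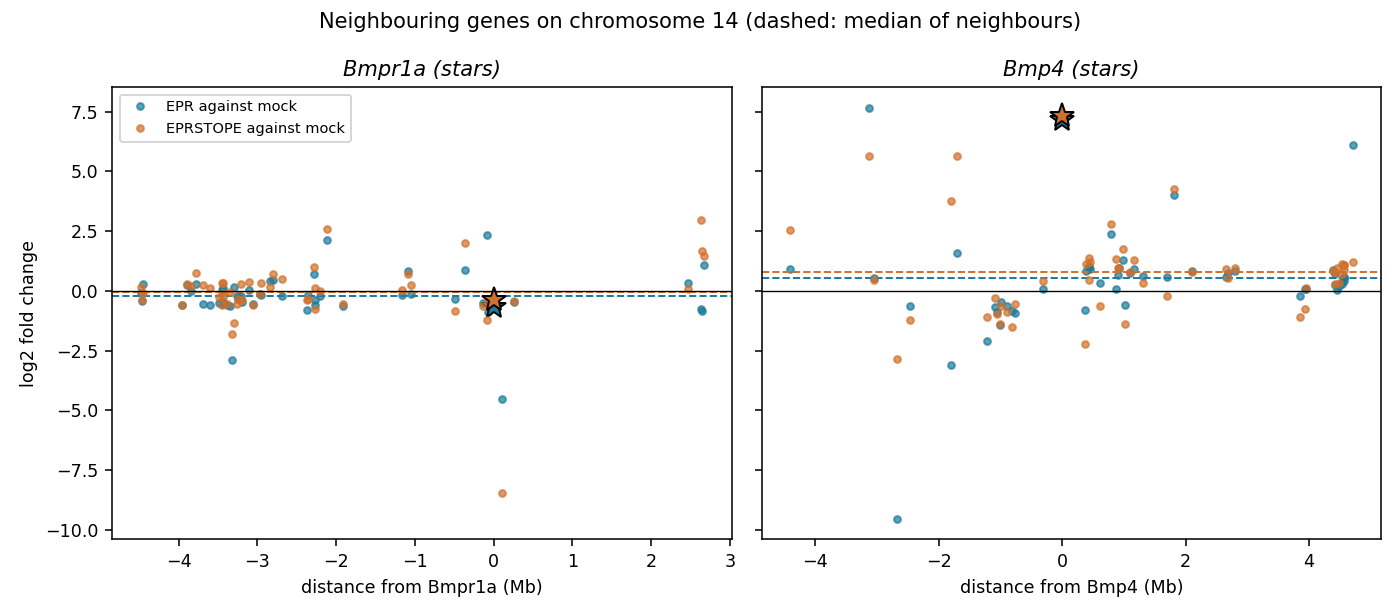
Log2 fold change against mock of tested genes around *Bmp4* and *Bmpr1a* on chromosome 14, by distance in Mb from the gene, for EPR and EPRSTOPE; stars mark the gene itself and dashed lines the median of its neighbours. *Bmp4* stands above 7 at distance 0, with neighbours mostly below 0 on the lower-coordinate side and mostly above 0 on the other, and *Bmpr1a* lies among its neighbours.

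The genes whose pattern over the 9 libraries was most like that of each *Id* gene were found from the Pearson correlation of log2 CPM over 10707 genes, a description in which the points share 3 groups. For *Id1* they were *Gsr* (r = 0.993), *Ifngr2* (r = 0.989) and *Tsnax* (r = 0.989), which encode glutathione reductase, an interferon-gamma receptor chain and a translin partner. For *Id2* they were *Gas2l3* (r = 0.994), *Cdkn2a* (r = 0.992) and *Mad2l1* (r = 0.989), of which the second encodes the cell cycle inhibitors p16 and p19 and the last a spindle checkpoint protein. For *Id3* they included *Cep57* (r = 0.99) and *Dennd4a* (r = 0.984). *Id2* and *Id3* correlated with each other at 0.939, and *Id1* with *Id2* at −0.761 and with *Id3* at −0.845.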

How the data were processed

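Total RNA of 9 NMuMG cell libraries was sequenced with a stranded kit. The authors quantified the reads with kallisto 0.43.1 against Gencode vM15 transcripts (GRCm38.p5) and deposited estimated counts and TPM for 131100 transcripts per library; the TPM are scaled to transcript length and depth. The strand setting was not given in the sources used here. Estimated counts were summed per gene symbol and rounded. The 15370 genes that reached 1 CPM in 3 or more libraries were normalised by TMM in edgeR 4.0.16 (R 4.3.3) and tested with its quasi-likelihood test in a single-factor model of all 9 libraries, with Benjamini-Hochberg adjustment over all genes tested; calls needed an adjusted p under 0.01 together with a log2 fold change beyond 0.5. Fold changes are edgeR estimates, CPM are TMM-normalised, and levels of different genes were compared in TPM. Exact permutation tests on single genes cannot go below 0.1 with 3 libraries against 3. Replicates differed by more than sampling noise (4.7 or more in chi-square per degree of freedom). The scripts were tested on simulated data.

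The alternatives were DESeq2 1.42.0, limma 3.58.1 (voom), other size factors and filters, counts rebuilt from TPM, fits of 2 groups, other thresholds and leaving out each library. All 10 genes are reported. Of the other pathway genes, those called whose higher group averaged 5 CPM or more were named, up to the 8 with the largest change per comparison, together with genes at 0 in every library of a group and the 3 genes most like each *Id* gene (2 genes that this rule names are not reported here); *Bmp8a*, *Grem1*, *Rgma*, *Smad4*, *Smad5*, *Smad7*, *Smad9*, *Ppm1a*, *Smurf2*, *Ski* and the E protein genes were added after their values were seen. The genes and lists were chosen with earlier results of these data known.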

Additional observations from a re-analysis of the deposited data

Results flagged for a closer look

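For 6 genes the effect of EPR against mock and the effect of EPRSTOPE against mock differed by the direct edgeR test of EPR against EPRSTOPE, with an adjusted p under 0.01 together with a log2 difference beyond 0.5. They were 1 of the 10 genes (10%) and 5 of the 34 further genes tested (14.7%). The share over all genes was 13.2%, so their number is near that of any genes. The difference, EPR minus EPRSTOPE on the log2 scale, was −1.41 for *Bmp2*, −1.06 for *Atoh8*, −1.22 for *Bmper*, 1.97 for *Fst*, 0.7 for *Nbl1* and −2.77 for *Bmp8a*. For all but *Bmp8a* the effects of EPR and EPRSTOPE against mock pointed the same way and differed in size. *Bmp8a* was at −1.07 in EPR and 1.7 in EPRSTOPE against mock, neither of which was called, from at most 26 counts in a library. No library overlapped between EPR and EPRSTOPE for any of them, which held for 43% of all genes. The 6 genes were picked by the test on these same libraries, so that the lack of overlap is no further support. EPR RNA averaged 24.9 CPM in EPR and 4.24 CPM in EPRSTOPE libraries, and its part in these differences cannot be told apart from that of the mutation.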

How the results depend on the processing

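*Bmp2*, *Bmp4*, *Bmp7*, *Id1*, *Id2* and *Id3* kept direction and call against mock under every alternative fit in which they were tested, at the same thresholds, apart from *Id1* in EPRSTOPE, which was short of the fold threshold throughout; *Bmp4* and *Bmp7* were not tested with at least 10 counts in every library, nor *Bmp7* without any one mock library. In the comparisons with mock of EPR and of EPRSTOPE and in the direct comparison, the genes called numbered 7478, 7442 and 4637 at an adjusted p under 0.05 with no fold limit, 2296, 2373 and 1001 with a log2 fold change beyond 1, and 940 in the last with counts rebuilt from TPM, in place of 4316, 4302 and 2031. Of the 10 genes, 3 were called in EPR against mock with a log2 fold change beyond 1, 3 in EPRSTOPE against mock with at least 10 counts in every library, and, in EPR against EPRSTOPE, 2 with DESeq2, 2 without a filter and 5 at an adjusted p under 0.05. Of the pathway genes, 5, 6 and 3 were called with at least 10 counts in every library, where fewer genes are tested, 24, 22 and 14 at an adjusted p under 0.05, and 3 in EPR against EPRSTOPE with counts rebuilt from TPM. Leaving out each library in turn gave 3816 to 4328, 3817 to 4251 and 1664 to 2026 genes, 6 to 8, 4 to 5 and 1 to 2 of the 10 genes, and 9 to 12, 10 to 13 and 4 to 6 pathway genes. Leaving out libraries moved *Bmpr2* up to 0.07 and 0.08 against mock, *Smad6* down to −0.22 in EPRSTOPE against mock, *Bmp7* up to 4.7 (without EPRSTOPE replicate 209) and *Id3* up to 0.1 between EPR and EPRSTOPE, all on the log2 scale. Values that changed sign were *Bmpr2* at −0.02 (EPR) and −0.0008 (EPRSTOPE against mock) without mock replicate 203, and at 0.0078 with at least 10 counts, 0.02 without EPR replicate 207 and 0.02 without EPRSTOPE replicate 211 between EPR and EPRSTOPE. With counts rebuilt from TPM, *Smad1* was −0.4 (EPR against mock) and −0.16 (EPR against EPRSTOPE), and *Smad6* 0.06 (EPR) and 0.28 (EPRSTOPE against mock). *Smad6* was also 0.06 (EPRSTOPE against mock) without EPRSTOPE replicate 211, *Bmp7* −1.99 between EPR and EPRSTOPE without EPR replicate 206, and *Id3* −0.03 without EPR replicate 206 and −0.06 without EPRSTOPE replicate 211. Of these, the *Smad6* fall in EPR alone had been called; the cause was not tested. No paired analysis was made, because the labels do not say whether libraries of different groups were prepared in matched sets. Depth limits *Bmp4* in mock libraries, at 2 to 4 counts, and *Bmp7* in EPR and EPRSTOPE libraries, at 0 or 1 count except 10 in EPR replicate 206.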
